A study of Caenorhabditis elegans with 5 samples.

Results

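The transcriptome of *Caenorhabditis elegans* cultured in space was compared with that of worms cultured on the ground at the operation site of the same mission, as measured on 1 Affymetrix array each. These 2 arrays are 2 of the 5 in the series, chosen by the sample labels alone and not by any measured value. Both groups were wild-type worms of the Bristol N2 strain at mixed stages, 100000 worms each. They had been kept in the liquid medium CeMM, which is chemically defined, at 20 °C for 10 days. The flight group was labelled as micro gravity and the operation-site group as 1 G. Worms of both groups were frozen with liquid nitrogen before ISOGEN extraction, and 15 µg of total RNA went into the biotin-labelled cRNA of each array. Each array therefore holds the RNA of a whole population of animals. Fewer cells of a tissue, fewer animals of a stage and less RNA per cell cannot be told apart in such a sample.

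The worm's body plan gives the groups of genes below their meaning. The pharynx is a pump of its own muscle type that takes up food, with myosin heavy chains that differ from those of the body wall. Body wall muscle is striated, and its sarcomeres are anchored through dense bodies, the worm's counterpart of Z-discs and focal adhesions, to the basement membrane. The epidermis secretes the cuticle, a collagen exoskeleton that is rebuilt at each larval moult, and it makes small antimicrobial peptides on wounding and infection. In adults much of the RNA of the animal comes from the germ line, where meiotic cells, oocytes and sperm are made.

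Each condition had 1 array, so no replicate gives the spread of a difference and no difference below has a test, an SE or a p-value. A difference is given as flight over operation site and was counted when it reached 2-fold or, as a smaller size, 1.5-fold. Signals are scaled array intensities in arbitrary units, and a gene's signal can be set against the same gene on the other array but not against another gene. As deposited, the flight array was the brighter, with a median of 57.1 over all probe sets against 42.6 for the operation-site array. The arrays were therefore brought to a common distribution, and every difference holds relative to all genes on the array. On the values as deposited the median of all genes lay at 0.52 on the log2 scale, and 32 of the 70 gene lists then turned from a median at least 0.1 below 0 to one above 0. Of the 17118 genes named on the array, 10651 lay above a floor signal of 24.92 on at least 1 of the 2 arrays and were compared, and 6467 lay at the floor on both.

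Most genes read nearly alike on both arrays. Across the compared genes the median difference was 0.01 on the log2 scale, the quartiles lay at -0.21 and 0.21, and 89.1% of genes were within 1.5-fold. At least 2-fold higher in flight were 63 genes (0.591% of those compared), and 127 (1.19%) were at least 2-fold lower, so that 66.8% of the genes past 2-fold were lower. That share was 78.3% when the arrays were scaled by their trimmed means instead, 56.9% with the floor at the 20th percentile, and 0.8% on the values as deposited, where 621 genes were higher and 5 lower. At 1.5-fold, 440 genes (4.13%) were higher and 717 (6.73%) lower. For the size of differences between arrays of ground worms, the operation-site array was set against that of the other ground control, at Tsukuba, which grew at 1 G as well. There, 478 of 10921 genes (4.38%) were at least 2-fold higher at the operation site and 416 (3.81%) were lower. More genes were thus past 2-fold between the 2 ground controls than between flight and the operation site, and these comparisons share the operation-site array.

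**Figure D1:**
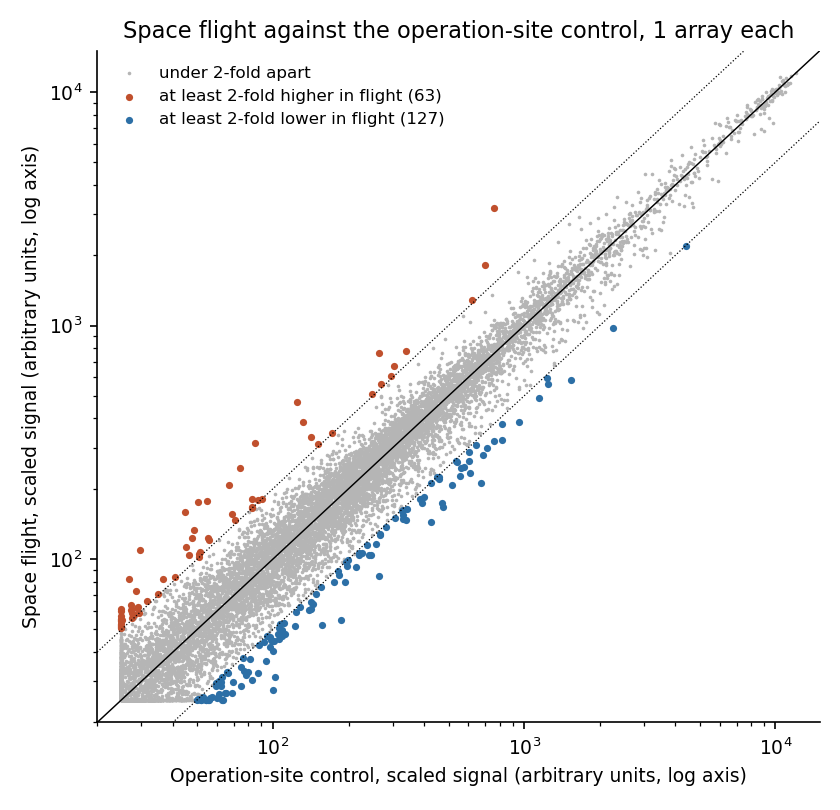
Scaled signal of each gene above the floor on the operation-site array (horizontal, log axis) and on the space flight array (vertical, log axis), 1 point per gene and 1 array per condition; the solid line marks equal signals and the dotted lines 2-fold. The 63 genes at least 2-fold higher in flight lie mostly at low signals, and the 127 lower genes reach further up the scale.

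Muscle genes of the pharynx were the gene group farthest below the other genes in flight. All 9 measured members of the pharyngeal muscle list read lower, 4 of them at least 2-fold (1.19% of all compared genes were) and 6 at least 1.5-fold (6.73% of all), with a median difference of -0.95 on the log2 scale against 0.01 for all genes. Lists and members, here and below, were chosen with earlier results of these data known. The shares of all genes beside them therefore give scale and are not a test of enrichment. *myo-2*, which encodes a myosin heavy chain made in pharyngeal muscle alone, read 675 at the operation site and 212 in flight, a log2 difference of -1.67. Its partner *myo-1*, the other pharyngeal myosin heavy chain, read 814 and 324, a difference of -1.33. The 2 pharyngeal myosins were thus both well past 2-fold, and a separate probe set of *myo-1* read 548 and 238. The regulatory proteins of the pharyngeal thin filament were lower by less, about 2-fold. *tnt-4*, a troponin T, read 307 and 150, *tni-4*, a troponin I, 732 and 378, and *tnc-2*, the pharyngeal troponin C, 669 and 348. *pha-4*, the FoxA transcription factor that specifies pharyngeal cells, read 175.6 at the operation site and 79.98 in flight, and its other probe set read 140 and 86.9. The remaining members lay closer to the bulk of the genes, down to *pqn-74*, which read 115 and 107. Of these 9 genes, 2 were also lower in flight than on the Tsukuba array and 7 were not: *myo-2* read 208 at Tsukuba, close to its flight value. *inx-6*, an innexin of pharyngeal muscle gap junctions chosen after its value was seen, read 66.0 and 32.9 (30.1 at Tsukuba).

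Sarcomere genes of the whole body were lower too, but by less. Of 13 thick filament genes 12 read lower in flight, 3 of them at least 2-fold (1.19% of all compared genes were), and the median was -0.44, with the pharyngeal *myo-1* and *myo-2* among the members. The third gene past 2-fold was *unc-22*, which encodes twitchin, a giant kinase of the A-band: it read 195 at the operation site and 96.97 in flight, and 59.6 and 37.1 on another probe set. Myosin of the body wall stood much nearer to its ground level. *unc-54*, its major heavy chain, read 2208 and 1673, a difference of -0.40. *myo-3*, the minor heavy chain at the centre of the filament, read 306 and 241 (-0.35), and *unc-15*, paramyosin of the filament core, read 2730 and 2212 (-0.30). The 2 body wall heavy chains and paramyosin therefore all lay within 1.5-fold. The other large structural proteins were in the same range, with *unc-89* (obscurin) at 600 and 424 and *ttn-1* (a titin-like protein) at 282 and 193. *myo-5*, another myosin heavy chain, read 204.5 and 112.3. Among the light chains, *mlc-1* differed by -0.17, *mlc-2* by -0.28 and *mlc-3* by -0.44. *unc-45*, the chaperone that folds myosin heads, was the only list member that read higher in flight, at 119.2 and 153.6 (0.37).

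Thin filament genes showed the same direction with a split between members. Of 21 genes 19 read lower, 8 of them at least 1.5-fold (6.73% of all compared genes were), and the median was -0.37. Among these 8 were *tnt-4*, *tni-4* and *tnc-2*, which the pharyngeal muscle list also holds. *lev-11*, tropomyosin, read 3070 at the operation site and 1968 in flight, and *unc-87*, a calponin-related protein of the filament, read 2375 and 1638. Actin and several of its regulators were near 0: *act-4* differed by -0.13, *pat-10*, the body wall troponin C, by -0.02, and *unc-60*, an actin depolymerising factor, by -0.03. *cap-1*, an actin capping protein, read higher, at 986 and 1232. *tmd-2*, a tropomodulin, differed most after *tnt-4* and read 50.42 and 25.08, the latter just above the floor. With probe sets specific to 1 gene alone the median of the measured members was -0.13, so this group's size depends on which probe sets are counted.

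Genes of dense bodies and of the attachment to the basement membrane were mostly lower, by small amounts. Of 18 measured genes 16 read lower, none reached 2-fold, 2 reached 1.5-fold (6.73% of all compared genes were that far lower), and the median was -0.36. Those 2 were *pat-2*, the α-integrin of muscle, at 130 and 82.8, and *unc-96*, a protein of the M-line, at 128 and 82.7. Vinculin, α-actinin and zyxin stood together: *deb-1* (vinculin) differed by -0.54, *atn-1* (α-actinin) by -0.52 and *zyx-1* (zyxin) by -0.52. Below them came *dim-1* at -0.48 and *tln-1* (talin) at -0.46, the latter at 0.03 on a probe set specific to the gene. The integrin adaptor complex was in the middle of the list, with *unc-112* (kindlin) at -0.36, *pat-6* (parvin) at -0.33 and *pat-4* (integrin-linked kinase) at -0.30. *unc-98* differed by -0.36, *uig-1* by -0.35 and *unc-95* by -0.34. The remaining members were close to 0 or above it: *unc-52* (perlecan) at -0.16, *alp-1* at -0.08, *unc-97* (PINCH) at -0.04, *lim-9* at 0.13 and *pat-3*, the β-integrin, at 0.17. *lim-8* lay at the floor on both arrays. The α-integrin and β-integrin of the same receptor thus lay on opposite sides of 0. Calcium handling genes of muscle had a median of -0.30 over 8 genes (-0.17 on gene-specific probe sets), from *unc-68*, the ryanodine receptor (266 and 184), to *itr-1*, the inositol trisphosphate receptor (346 and 362).

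**Figure D2:**
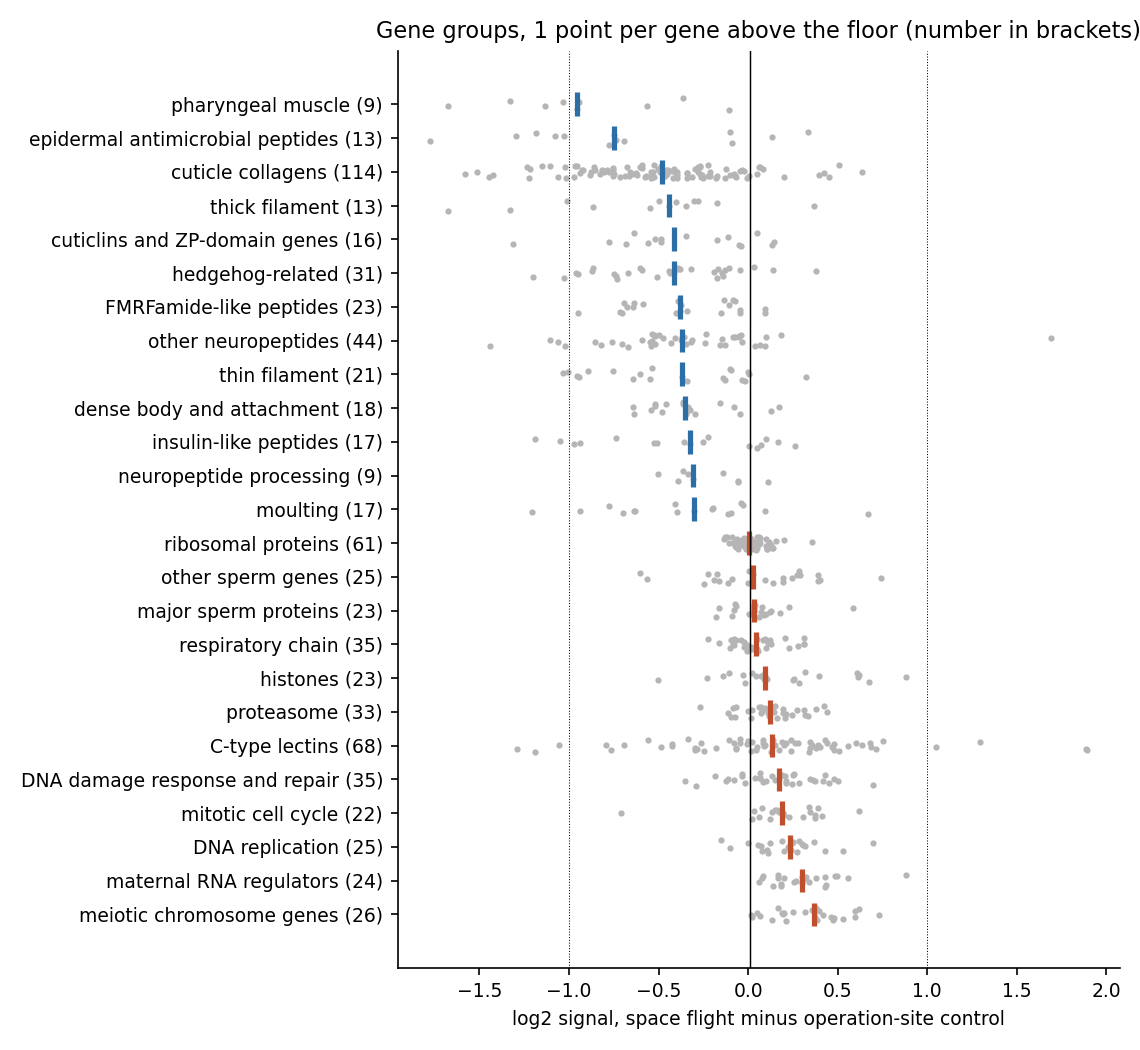
Log2 difference between space flight and the operation-site control for every gene above the floor in 25 gene groups (1 point per gene, grey), with the median of each group as a bar; the solid vertical line is the median of all genes and the dotted lines mark 2-fold. Pharyngeal muscle has the lowest median (-0.95) and meiotic chromosome genes the highest (0.37).

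Of the 70 gene lists, cuticle collagens held the most genes at least 2-fold lower in flight. By gene name, 10 of 96 *col* genes and 9 of 50 *nlp* genes were that far lower. Of 114 cuticle collagens above the floor, 12 were at least 2-fold lower, against 1.19% of all compared genes, and 43 at least 1.5-fold lower, against 6.73%. None was 2-fold higher and 1 was 1.5-fold higher, and the median of the family was -0.48. *col-45* read 157 at the operation site and 52.4 in flight, the largest difference in the family (-1.58). *col-102* read 476 and 167, and *col-85* read 472 and 174. Collagens that shape the body were among them: *dpy-9*, whose loss makes worms short and fat, read 87.3 and 32.5, and *rol-6*, known for mutations that make worms roll, read 268 and 128. The difference was not shared by every collagen gene, since 11 of the 114 read higher in flight. *dpy-17* read 53.9 and 73.6, and *dpy-14* was at the floor at the operation site and read 38.7 in flight. *col-19*, a collagen of the adult cuticle, read 332 and 278 (-0.26). Many collagen genes resemble each other in sequence, so a probe set may take up RNA of related members.

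Other secreted products of the epidermis lay on the same side. Among hedgehog-related genes, a nematode family of secreted proteins, 28 of the 31 above the floor read lower and the median was -0.41. At least 1.5-fold lower were 12 of them, against 6.73% of all compared genes. *grl-23* read 240.3 and 104.4, *grl-7* read 107 and 52.6, *grl-20* read 1314 and 677 and *grl-25* read 858 and 444. Cuticlins and related ZP-domain genes had a median of -0.41 over 16 genes, which was -0.23 with the floor at the 20th percentile. Among these, *noah-1*, a component of the apical matrix needed for moulting, read 543 and 318, and *cut-1*, a cuticlin, read 181 and 113. Moulting genes had a median of -0.30 over 17 genes (-0.64 with the floor at the 60th percentile), with *mlt-8* at 139 and 60.4 and *mlt-11*, a protease inhibitor, at 197 and 121. *elt-3*, a GATA factor of the epidermis, read 437 and 307, and *dpy-7*, a collagen of the larval epidermis, read 115 and 63.8. Of the 12 epidermis markers 10 read lower, with a median of -0.44 (-0.21 with all probe sets of a gene averaged). The other epidermal regulators on that list read slightly higher, *elt-1* at 46.8 and 52.6 and *lin-26* at 500.1 and 510.04. *lon-1*, a secreted protein of the epidermis that restrains body length under the TGF-β ligand DBL-1, read 401 and 184. The DBL-1 pathway was mixed, with 8 of 12 genes lower and a median of -0.18 (-0.46 on gene-specific probe sets). *sma-4*, a Smad, read 328 and 216 and *sma-9*, a transcriptional cofactor, 763 and 501, while *lon-2*, a glypican that restrains the pathway, read 130 and 193.

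Antimicrobial peptides of the epidermis gave the second lowest group median, -0.75 over 13 genes above the floor. Of these, 11 read lower, 5 of them at least 2-fold, against 1.19% of all compared genes. *nlp-30* read 187 at the operation site and 54.6 in flight, *nlp-31* read 555 and 226, and *nlp-29*, the member commonly used as a reporter of epidermal wounding and fungal infection, read 393 and 173. These 3 genes lie next to one another on the chromosome. *nlp-27* read 330 and 162, and *nlp-33*, which is not in that run, read 268 and 127. The related caenacin genes were lower by less, with *cnc-3* at 170 and 101 and *cnc-4* at 373 and 348, and *cnc-1* and *cnc-6* read slightly higher in flight at signals near the floor. The probe sets of *nlp-27*, *nlp-29*, *nlp-30*, *nlp-31* and *nlp-33* may all bind several transcripts, so their values are not independent of each other. With probe sets specific to 1 gene alone the median of the group was -0.10.

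Neighbouring genes past 2-fold in the same direction were few. In the gene order of the RefSeq assembly WBcel235 there were 6 such runs with 13 genes in all, among 6653 neighbouring pairs with both genes above the floor. Besides the 3 *nlp* genes, *nlp-33* and *T19C4.1*, *C25E10.4* and *srsx-34*, and *Y110A2AL.2* and *Y110A2AL.3* were lower side by side. *Y110A2AL.2* read 540 and 261 and *Y110A2AL.3* read 385 and 181. *F35E8.6* and *F35E8.7* were higher side by side, as were *Y62H9A.3* and *Y62H9A.4*. By chromosome, 64.55% of 1512 compared genes of the X chromosome read lower in flight, with a median of -0.11, against 46.02% of 9112 autosomal genes with a median of 0.03. Chromosome V held 43 of the genes at least 2-fold lower, 2.07% of its compared genes, against 1.19% over the autosomes together. On the other chromosomes the share ran from 0.456% (I) to 1.47% (IV).

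Neuropeptide genes were lower as a group. Of 23 genes for FMRFamide-like peptides, short modulators of muscle and nerve activity, 21 read lower in flight, with a median of -0.38, and 7 were at least 1.5-fold lower, against 6.73% of all compared genes. *flp-21*, a ligand of the receptor NPR-1, read 371 at the operation site and 192 in flight, *flp-19* read 707.5 and 434, *flp-2* read 601 and 371 and *flp-17* read 214 and 130. None of the 23 reached 2-fold. The other neuropeptide genes had a median of -0.37 over 44 genes, 4 of them at least 2-fold lower and 1 higher, against 1.19% and 0.591% of all compared genes. *nlp-68* read 82.3 and 30.4, *nlp-91* read 74.7 and 34.7, *nlp-49* read 601 and 288, and *nlp-53* read 155 and 76.3. The exception, *nlp-39*, read 54.9 and 177. Genes for the processing and release of these peptides were lower by less, with a median of -0.31 over 9 genes (-0.14 with all probe sets of a gene averaged). *egl-3*, the proprotein convertase, read 3044 and 2149, and *sbt-1*, its 7B2-like chaperone, read 3216 and 2500.

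Genes of synaptic vesicle release were split. Of 18 genes 13 read lower, 4 of them at least 1.5-fold (6.73% of all compared genes were), and the median was -0.24, or -0.11 on probe sets specific to 1 gene. *ric-4* (SNAP-25) read 577 and 330, *cpx-1* (complexin) 118.9 and 72.62 and *rab-3*, the vesicle GTPase, 323 and 213. *snb-1* (synaptobrevin) read 1340 and 1382, and *unc-119*, a broadly used marker of neurons, read 48.4 and 48.8, so that these 2 neuronal genes read nearly alike on both arrays. Insulin-like peptides, several of which come from neurons and the intestine, had a median of -0.33 over 17 genes, and the median was 0.00 with the floor at the 60th percentile. *ins-35* read 559 and 245, *ins-30* read 597 and 311, *ins-1* read 83.5 and 42.5, and *ins-7* read 51.6 at the operation site and lay at the floor in flight. *ins-18* read slightly higher, at 245 and 294. In the dauer pathway *daf-7*, the TGF-β ligand of sensory neurons, read 144 and 95.1, and *daf-5*, a Sno/Ski-related factor downstream of it, read 426 and 242.

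Meiotic and maternal genes of the germ line lay on the other side of 0, by small amounts. All 26 meiotic chromosome genes above the floor read higher in flight, 4 of them at least 1.5-fold (4.13% of all compared genes were) and none 2-fold, and the median of 0.37 was the highest of the 70 lists. *syp-2*, a protein of the synaptonemal complex, read 150 at the operation site and 249 in flight. *hal-2*, needed for homologous pairing, read 101 and 154, *rec-8*, the meiotic cohesin, 225 and 341, and *him-14*, the MSH4 homologue of crossover formation, 56.0 and 84.6. The other members ran down to *syp-3*, at 204 and 206. All 24 maternal RNA regulators also read higher, with a median of 0.30 and 1 gene past 1.5-fold, where 4.13% of all compared genes were. That gene, *nos-2*, a Nanos homologue of the primordial germ cells, read 134 and 247. *mex-6*, an RNA-binding protein of embryonic polarity, read 454 and 667, *cgh-1*, a DEAD-box helicase of germ granules, 1190 and 1681, and *fbf-2*, a PUF-family RNA repressor in germ line stem cells, 117 and 164. Nearly all of these genes had flight values above Tsukuba as well, 25 of the 26 meiotic genes and 24 of the 24 maternal regulators. The same share over all compared genes was not counted. The median signal of the meiotic genes was 146 at Tsukuba and 157 at the operation site. That of the maternal regulators was 618 and 719. With the Tsukuba medians the lower ones, the counts above Tsukuba add little about flight.

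Genes of cell division, small RNA pathways and oocytes shifted in the same direction by less. The DNA replication, mitotic, repair, Argonaute and eggshell lists each had 1 gene at least 1.5-fold higher (4.13% of all compared genes were). The shift of these lists thus lay in small differences of most members. Of 25 DNA replication genes 22 read higher, with a median of 0.23: *psf-3*, a GINS subunit, read 54.1 and 87.6, and *mcm-6*, of the replicative helicase, 508 and 654. Of 22 mitotic cell cycle genes 21 read higher, with a median of 0.19, led by *cdc-25.1*, the germ line phosphatase that activates CDK1, at 291 and 447 (0.62). The only lower member, *cyd-1*, differed by more, at 52.9 and 32.3 (-0.71). Of 35 DNA damage and repair genes 26 read higher, with a median of 0.17. *xpc-1*, a nucleotide excision repair factor, read 38.03 and 61.68, and *chk-1*, the checkpoint kinase, read 223 and 311 but differed by -0.04 on a probe set specific to it. Of 31 Argonaute and RNA interference genes 27 read higher, with a median of 0.23, among them *wago-4*, at 153 and 228, and *ego-1*, an RNA-dependent RNA polymerase, at 97.3 and 146. Of 12 eggshell and egg surface genes 11 read higher, with a median of 0.21: *cpg-3*, a chondroitin proteoglycan of the eggshell, read 1677 and 2583, and *rme-2*, the yolk receptor of oocytes, 1178 and 1470. Histone genes had a median of 0.09 over 23, with 5 at least 1.5-fold higher (4.13% of all compared genes were), such as *his-1* (histone H4) at 269 and 495, on probe sets shared between near-identical copies; the median was -0.03 on gene-specific probe sets.

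Sperm genes read nearly alike in flight and at the operation site. The 23 major sperm protein genes had a median difference of 0.03, and 1 was at least 1.5-fold higher (4.13% of all compared genes were). Their median signal was 2016 at the operation site and 2283 in flight, but 560 at Tsukuba. The 25 other sperm genes also had a median difference of 0.03. Their median signal was 87.6 at the operation site, 81.0 in flight and 36.6 at Tsukuba. Of these 25, 1 was past 1.5-fold in each direction, where 4.13% of all compared genes were higher and 6.73% lower. *ssp-19* read 31.8 and 53.1, and *fer-1*, a ferlin of sperm membrane fusion, 49.2 and 32.4. The major sperm protein genes are near-identical copies and their probe sets cannot tell them apart. Yolk protein genes were mostly near 0 as well, with *vit-6* at 5271 and 5242, while *vit-1* read 82.7 and 166.

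Intestinal genes were slightly lower as a group. Of 13 intestine markers 9 read lower, with a median of -0.14, as did 21 of 28 intestinal proteases and transporters, with the same median, and 18 of 24 lysozymes and saposin-like proteins, with a median of -0.10. Members of these lists overlap. *ges-1*, a gut esterase, read 409 and 370, and *vit-2*, a yolk protein made by the intestine, read 2784 and 2982. *elt-2*, the GATA factor that maintains intestinal identity, read 219 and 120 on the probe set used, but 81.28 and 107.9 on another, so that its 2 probe sets differed in direction. Of the 23 markers of 8 tissues and stages 21 were above the floor, and the exceptions were *spe-9* of sperm and *med-1* of embryos.

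**Figure D3:**
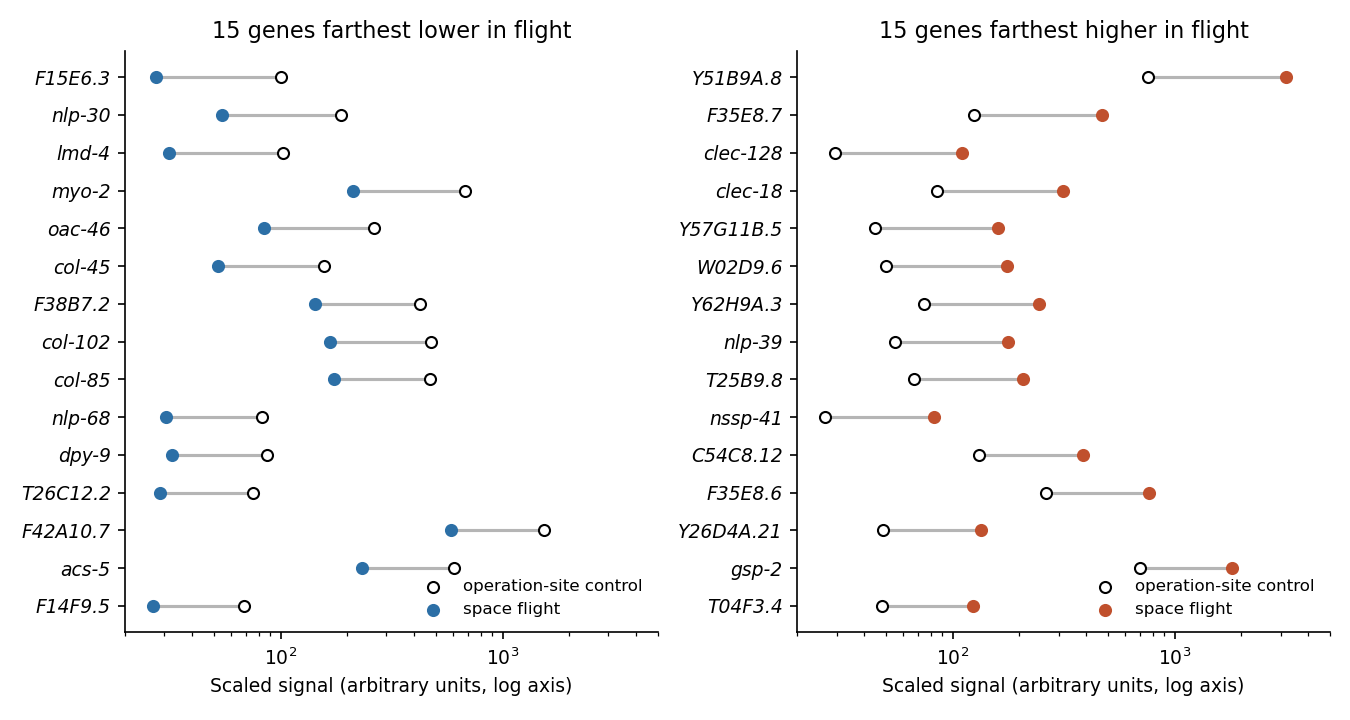
Scaled signal (log axis) at the operation site (open circles) and in space flight (filled circles), 1 array each, for the 15 genes above the floor on both arrays that differed most in each direction. The lower genes span *F15E6.3* (100 to 27.6) to *F14F9.5* (68.7 to 26.7), and the higher genes *Y51B9A.8* (761 to 3188) to *T04F3.4* (47.81 to 123.3).

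Many of the genes higher in flight have no gene name. Of the 63 genes, 35 are known by a clone name only, as are 41 of the 127 lower genes and 3740 of all 10651 compared. *Y51B9A.8* was the single gene past 4-fold: it read 761 at the operation site and 3188 in flight, a log2 difference of 2.07. *F35E8.7* read 125 and 471, and its neighbour *F35E8.6* read 263 and 764. *Y57G11B.5* read 44.9 and 160, and *W02D9.6* read 50.3 and 175. For both of these the Tsukuba array read higher than flight, at 551 and 325. *gsp-2*, a catalytic subunit of protein phosphatase 1, read 697 and 1820, but its other probe set read 328 and 307, so that the difference did not recur on it. Its mean over both was 0.64 on the log2 scale.

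C-type lectins, secreted carbohydrate-binding proteins many of which respond to bacteria, were spread in both directions. Of 68 above the floor 44 read higher and 24 lower. At 2-fold, 4 were higher and 3 lower, where 0.591% and 1.19% of all compared genes were, with a median of 0.13 (0.03 on the values as deposited, relative to all genes). *clec-18* read 85.2 and 315, *clec-128* read 29.6 and 110, and *clec-57* read 50.997 and 105.6. The lower members were *clec-174*, at 65.1 and 26.6, *clec-72*, at 101 and 44.5, and *clec-42*, at 91.8 and 44.1. *clec-59* lay at the floor at the operation site and read 61.2 in flight, at least 2.46-fold higher.

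Small heat shock genes that respond to unfolded protein were higher in part. *hsp-16.2* read 270 at the operation site and 563 in flight, *hsp-16.41* read 127 and 220, and *hsp-16.21*, chosen after its value was seen, read 70.7 and 148. On the Tsukuba array all 3 were above flight, with *hsp-16.2* at 6148. *hsp-12.6*, a target of the FOXO factor DAF-16, read 609 and 1039, while *hsp-12.2* read 955 and 548. Over the 10 small and inducible heat shock genes above the floor the median was 0.18. The 28 constitutive chaperones had a median of 0.12 with none past 1.5-fold.

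Beyond the tissue groups, the genes lowest in flight were of mixed kinds. *F15E6.3* read 100 at the operation site and 27.6 in flight, the largest difference among the lower genes (-1.86), but its gene-specific probe set differed by -0.51. *lmd-4*, a LysM-domain gene, read 102 and 31.3, and *oac-46*, an acyltransferase homologue, 264 and 84.4, with 290 and 132 on another probe set. *F38B7.2* read 424.5 and 143.5, and *F42A10.7* read 1530 and 586.5. *acs-5*, an acyl-CoA synthetase, read 606 and 233. Chosen after their values were seen, *gpdh-1*, a glycerol-3-phosphate dehydrogenase of glycerol synthesis induced by salt stress, read 605 and 263, and *hmit-1.2*, a myo-inositol transporter, read 105 and 47.6. *pgp-14*, an ABC transporter chosen in the same way, read 97.8 and 42.1, and 98.8 and 32.6 on another probe set. The secreted SCP and transthyretin-like proteins went both ways, with a median of -0.07. Of 49 genes 3 were at least 2-fold lower and 2 higher, where 1.19% and 0.591% of all compared genes were. *scl-11* read 685 and 280, while *scl-20* lay at the floor at the operation site and read 54.5 in flight. Of 51 UDP-glycosyltransferase genes 2 were at least 2-fold lower, where 1.19% of all compared genes were, and the median was -0.12. These 2 were *ugt-8* (227 and 107) and *ugt-13* (646 and 309). *axl-1*, an Axin homologue of Wnt signalling, read 63.5 at the operation site and lay at the floor in flight, and *spl-2*, a sphingosine phosphate lyase gene, read 55.2 and lay at the floor, at least 2.55-fold and 2.21-fold lower.

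Housekeeping groups were close to equal. The 61 ribosomal protein genes had a median of 0.00 with none past 1.5-fold (-0.12 under trimmed-mean scaling), the 35 respiratory chain genes one of 0.04, the 33 proteasome genes one of 0.12 and the 16 glycolysis genes one of -0.03. None of the genes in these groups reached 1.5-fold. Over all 70 lists 45 had a median below 0 and 25 above 0, and before rounding 19 lay at or below -0.3 and 1 at or above 0.3. Lists overlap in their members, so these counts are not independent.

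The spread of differences depended on the signal. In the second decile of genes by signal, between 31.9 and 46.7, the SD across genes was 0.50 on the log2 scale, and in the top decile it was 0.27. It was 0.30 in the lowest, where the floor cuts off differences. Of the 63 genes higher in flight, 22 lay in the second decile, as did 28 of the 127 lower genes. Of the higher genes 11 were at the floor at the operation site. The median of the 63 was 48.6 at the operation site and 113 in flight. The 127 lower genes went from a median of 145 to 62.6, and 8 were at the floor in flight. Above the lowest decile, differences were thus more widely spread at low than at high signal.

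Genes with several probe sets gave a repeat of the measurement on the same RNA, though not of the culture. Among 20 genes at least 2-fold lower on the probe set used, 28 of 29 other probe sets also read lower in flight, 18 of them at least 1.5-fold and 9 at least 2-fold. Among 8 genes at least 2-fold higher, 7 of 8 other probe sets read higher, 4 at least 1.5-fold and none 2-fold. Over all 2294 genes with other probe sets above the floor, 64.1% of these lay on the same side. The highest of the genes in flight, *Y51B9A.8*, had a single probe set.

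**Figure D4:**
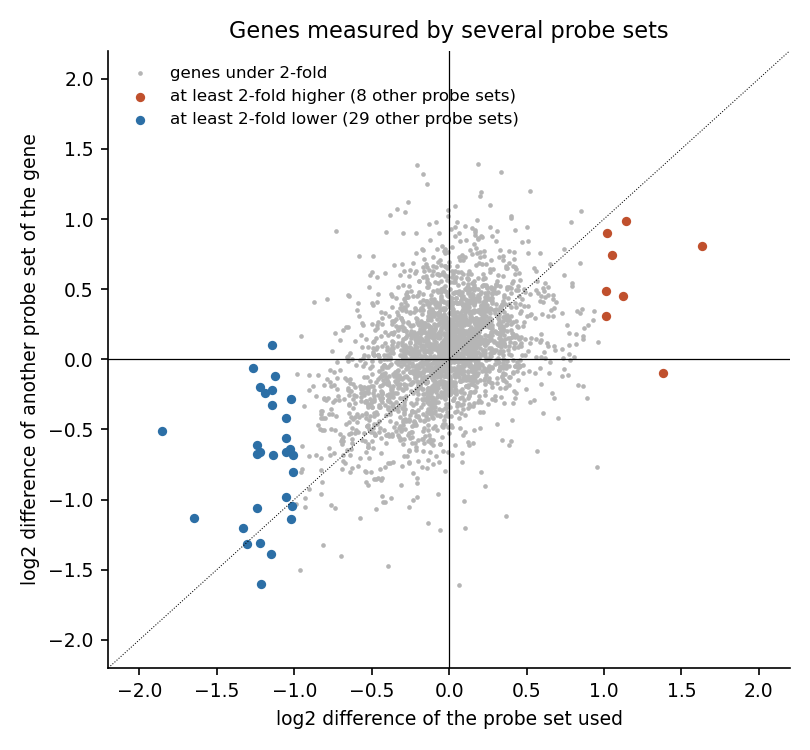
Log2 difference between space flight and the operation site for the probe set used for each gene (horizontal) and for another probe set of the same gene (vertical), 1 point per other probe set; the dotted line marks equal differences. Of the 29 other probe sets of genes at least 2-fold lower, 28 lie below 0, and of the 8 of genes at least 2-fold higher, 7 lie above 0.

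The Tsukuba control bears on how the differences can be read. Of the 127 genes at least 2-fold lower in flight than at the operation site, 98 were lower in flight than at Tsukuba as well, 53 of them at least 2-fold, and for 29 the Tsukuba signal was at or below flight. Of the 63 higher genes, 45 were above Tsukuba as well, 18 of them at least 2-fold, and 18 were not. The flight value that picked these genes enters both comparisons, so the counts are not an independent repeat. By group, 71 of the 114 cuticle collagens and 27 of the 31 hedgehog-related genes were lower in flight than on both ground arrays, against 2 of the 9 pharyngeal muscle genes and 3 of the 17 insulin-like peptides. The share of all compared genes that lay beyond both ground arrays was not counted. Whether these group counts differ from those of genes at large is therefore not known. With 1 array for each ground site, a difference of site and the spread between cultures cannot be told apart.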

How the data were processed

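The series holds 5 single-colour Affymetrix arrays, 1 per group of worms, of which the space flight and operation-site arrays were compared here. The deposited values are intensities on a linear scale, with 1 signal for each probe set. The method and software of that summary are not given in the sources used here. Per the labels, cRNA was labelled with biotin by the standard Affymetrix protocol.

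All 5 arrays were quantile scaled on the log2 scale, values under the 40th percentile (24.92) were set to it, and log2 was taken. Of 22548 probe sets, 20766 carried 1 gene symbol in the GEO platform annotation, which can be old, 887 carried several and 895 were not listed. Of 17118 genes, 17085 were in the RefSeq table. Where a gene had more than 1 (2981 genes), its brightest probe set on average was used.

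With 1 array per group no test was run, and the number of arrays limits the precision. Named were the 15 largest differences in each direction above the floor on both arrays, up to 5 with an array at the floor, up to 4 members per described list, all thick filament and dense body genes, neighbouring genes, and some chosen after their values were seen, as were other members quoted to show a list's range. Members and lists were chosen with earlier results of these data known. Alternatives were 3 other scalings, including the values as deposited, 2 other floors, the mean over probe sets, and gene-specific probe sets alone. The computations, in Python 3.11.15 with numpy 2.4.6 and pandas 2.3.3, were tested on simulated data.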

Additional observations from a re-analysis of the deposited data

Results flagged for a closer look

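Probe sets with several gene symbols or none were left out of the comparison. Of these 1782 probe sets 710 lay above the floor, 14 (1.97%) were at least 2-fold higher in flight and 10 (1.41%) at least 2-fold lower. They are listed here because the signal lies outside the compared genes.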

How the results depend on the processing

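The counts of genes at least 2-fold higher and lower, 63 and 127, depended on the scale and the floor. On the values as deposited they were 621 and 5, and relative to the median of all genes 41 and 152. With the floor at the 20th percentile they were 282 and 373, and with it at the 60th percentile 21 and 59. Trimmed-mean scaling gave 43 and 155, and the other 3 alternatives gave 56 to 61 higher genes and at least 88 lower ones. A lower floor takes in more genes with low signals and a higher one fewer. Relative to all genes, the median of insulin-like peptides turned to 0.004 with the floor at the 60th percentile and that of touch receptor neuron genes to 0.10 on gene-specific probe sets. On the latter, *chk-1* turned to -0.044 and *tln-1* to 0.03; the cause was not tested. Of the 74 named genes past 2-fold, 29 stayed past it in every alternative that gave a value. For this count the values as deposited were taken relative to the median of all genes, not without scaling. Without scaling, 34 named genes, *unc-54*, *unc-15* and *myo-3* among them, turned from lower to higher in flight (thick filament median 0.11, cuticle collagens 0.02). No paired analysis was possible because each group has 1 array and no replicate numbers.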
